A study of Mus musculus with 9 samples.

Results

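The Oxr1 circular RNAs (circRNAs) of mouse liver were the position-named circRNA probes lying wholly inside a window taken as that of the gene. The window covered 417000 bp on chromosome 15 (41378000 to 41795000, mouse genome build mm9). These probes were 3 of 14043 position-named circRNAs and of 30534 circRNAs on the array. No further position-named circRNA reached into the window from outside. The circles were chosen by position, but the gene was selected on earlier results of these same arrays. Which values led to it is not recorded, so every difference between groups at these circles counts as used in the choice and is given as a description, with its SE and no test. The name Oxr1 rests on the window, because the files used here pair no probe with a host gene. The window itself was not checked against gene models of mm9.

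Liver was taken at 20 weeks of age from male C57BL/6J mice, an inbred wild-type strain, and 3 groups were formed. Controls were kept on chow for 17 weeks, with no gavage named in the labels. Mice of the high fat diet group were fed for those 17 weeks a chow of which 45% of the energy came from fat, and saline was given into the stomach over the last 5 weeks. Mice of the metformin group had the same fat diet and, in place of saline, metformin at 3 mg/kg/day over the same 5 weeks, a biguanide used to lower blood glucose. Each group had 3 arrays, each of which held RNA pooled from 4 mice, so the spread between arrays is that between pools and not between single mice. The RNA was digested with RNase R, an exonuclease that removes linear RNA and spares circles, and the Oxr1 messenger RNA was not measured.

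OXR1 is a protein of the TLDc domain family that protects cells against oxidative damage, and it is best known from neurons, where its loss in mice leads to neurodegeneration. A fat-rich diet loads liver cells with lipid and is known to raise oxidative stress there. A circRNA forms by back-splicing, in which a splice donor is joined to an acceptor that lies before it in the transcript. A gene can give several circles, which share one end where the same splice site is joined to different partners. In the RefSeq gene table (assembly GRCm38.p6), Oxr1 is a protein-coding gene whose neighbours in gene order are the long non-coding RNA gene Gm41312 and the protein-coding gene Abra. Gene models of mm9 were not at hand, so exons, introns and strand are not given here.

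The 3 circles had exactly the same lower coordinate, 41629020, and differed in the upper one. The shortest ran to 41633241 and spanned 4221 bp, and it is called the 4.2 kb circle below. The 16.3 kb circle ran to 41645272, a span of 16252 bp, which is 12031 bp beyond the upper end of the shortest. The 23.1 kb circle ran to 41652124, a span of 23104 bp and 6852 bp beyond the second. The spans are nested, so the shortest lies wholly inside the other two. All 3 lay between 60.2% and 65.7% of the way along the window, with the shared end 251020 bp above its lower bound and the outermost end 142876 bp below its upper bound. The position-named circRNA next below the window lay 10727 bp away, at 41367116 to 41367273. It was dim, with control, high fat diet and metformin means of -3.54 ± 0.132, -3.76 ± 0.0980 and -3.68 ± 0.179 (SD, n = 3) in log2 relative to the array's 75th percentile. The next above began 496213 bp beyond the window.

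**Figure D1:**
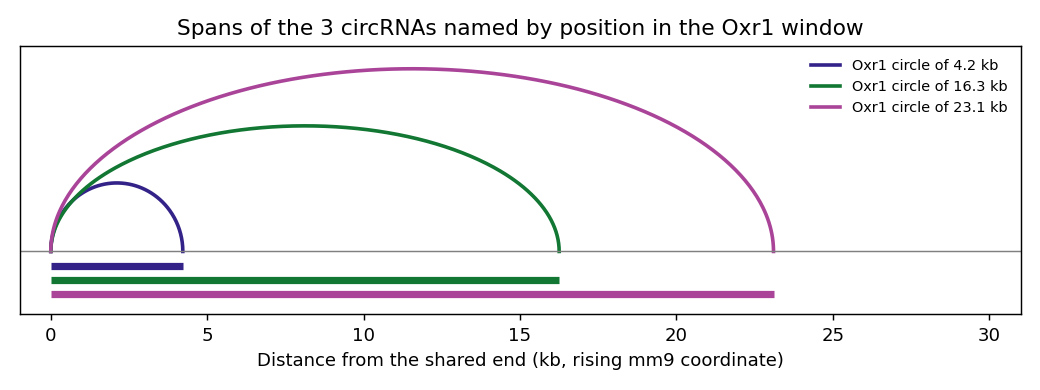
The 3 Oxr1 circles drawn as arcs and bars against the distance from their shared end in kb of mm9 sequence (the horizontal axis is to scale, and the height of an arc carries no value). The 4.2 kb, 16.3 kb and 23.1 kb circles start at the same base and end at 3 different ones.

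Such a layout was not rare on this array. Among 11687 tested position-named circles, 1604 fell into 516 sets of at least 3 circles with one exact end in common. The shared end was the lower coordinate in 280 of those sets, as at Oxr1, and the upper in 236.

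Each circRNA had 1 probe and a partner probe of the same name with the ending _neg. The target of the partner is not stated in the labels or headers, and it is treated as a paired reading that need not come from the circle. Levels are log2 of the background-subtracted intensity, minus the 75th percentile of all probes on that array, so a level of 0 is that percentile and a step of 1 is a doubling. The brightness of a probe depends on its sequence, so levels of the 3 circles are not ranked against each other as amounts of RNA. All 3 circles and all 3 partners were well above background on 9 of 9 arrays, with 0 saturated and 0 outlier spots. The 4.2 kb and 16.3 kb circles were brighter than their partners on 9 of 9 arrays, by 1.55-fold and 1.94-fold in the mean. The 23.1 kb circle was brighter on 8 of 9, by 1.15-fold, and on metformin array 3 its partner was the brighter one. Over 21345 pairs on the array, the median log2 ratio of circle to partner was 0.62, and the partner was the brighter in 22.1% of pairs. The ratio of 0.63 at the 4.2 kb circle was thus near that median, that of 0.96 at the 16.3 kb circle above it, and that of 0.20 at the 23.1 kb circle below it.

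Across the arrays, 69.4% to 84.2% of probes were well above background, and arrays correlated with each other at 0.973 to 0.993. High fat diet array 2 had the highest 75th percentile, an intensity of 1053 against 723 to 880 on the other 8 arrays, and 71.7% of its probes were well above background. Metformin array 3 was at array index 1 of a second slide and scanned separately, and it had the lowest share, 69.4%. All controls and the first high fat diet array lay at array index 1 of the first slide (from the file headers), and high fat diet arrays 2 and 3 and metformin arrays 1 and 2 at index 2. The difference of a circle or of the mean with this index as a covariate, or within an index, is given where it is over 1.5 times larger or smaller. The labelled tissue could not be checked against marker genes, since probes carry no host gene here, and for the same reason the other TLDc family, antioxidant and NRF2 pathway genes are not given.

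The 4.2 kb circle was lowest on the high fat diet. Its levels were 3.20, 3.10 and 3.11 on the control arrays, 2.80, 2.34 and 2.62 on the high fat diet arrays, and 2.97, 2.93 and 2.94 on the metformin arrays. Every control array lay above every metformin array, and every metformin array above every high fat diet array, so the groups did not overlap. The group means were 3.14 ± 0.06, 2.59 ± 0.23 and 2.95 ± 0.02 (SD, n = 3). On the high fat diet the mean was 0.55 ± 0.14 (SE) below the control mean, a fold of 0.682. The metformin mean lay 0.36 ± 0.14 above the high fat diet mean, a fold of 1.28, and between the other two group means; without high fat diet array 2 it lay 0.24 above, and within array index 1 of both slides, with 1 array of each, 0.15 above. The SEs come from the fit over all circRNAs. They combine the spread between pools in all 3 groups with that of the other circRNAs, so they are not the spread of this circle alone. Before scaling, the intensities were 7730, 6453 and 6241 in the chow pools, 5333, 5334 and 5406 in the high fat diet pools and 5817, 5920 and 5609 with metformin. The same order of groups without overlap was therefore present in the unscaled intensities. Against the control arrays of its own slide index, high fat diet array 1 stood at -0.34, against -0.55 over all arrays.

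The 16.3 kb circle was the dimmest probe of the 3 and varied most between arrays of one group. Its levels were 0.60, 0.31 and 0.32 on the control arrays, -0.23, 0.09 and -0.43 on the high fat diet arrays, and 0.23, 0.05 and 0.56 on the metformin arrays. All high fat diet arrays lay below all control arrays, while the metformin arrays overlapped with both. The group means were 0.41 ± 0.17, -0.19 ± 0.26 and 0.28 ± 0.26 (SD, n = 3). From control, the high fat diet mean differed by -0.60 ± 0.18 (SE), a fold of 0.660, and the metformin mean from the high fat diet mean by 0.47 ± 0.18, a fold of 1.39. The latter difference was 0.31 within slide index 2 and 0.79 within index 1 of both slides. The unscaled intensities overlapped: they were 1272, 929 and 902 in the chow pools, 655, 1118 and 655 in the high fat diet pools and 872, 806 and 1077 with metformin. High fat diet array 2, the array of the highest 75th percentile, was thus within the control range before scaling and below it after.

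The 23.1 kb circle differed least. Its levels were 2.86, 2.81 and 2.86 on the control arrays, 2.60, 2.59 and 2.69 on the high fat diet arrays, and 2.77, 2.59 and 2.86 on the metformin arrays. Again the high fat diet arrays lay below every control array, and the metformin arrays overlapped with both. The group means were 2.84 ± 0.03, 2.63 ± 0.05 and 2.74 ± 0.14 (SD, n = 3). High fat diet minus control gave -0.21 ± 0.13 (SE), a fold of 0.862. The metformin minus high fat diet difference was 0.11 ± 0.13 (SE), 0.04 within slide index 2 and 0.26 within index 1 of both slides. It was 0.05 without metformin array 3 and 0.19 without metformin array 2. Before scaling, the circle was not lower on the high fat diet: its intensities were 6095, 5272 and 5236 in the chow pools, 4652, 6358 and 5678 in the high fat diet pools and 5062, 4673 and 5288 with metformin, with means of 5534 and 5563 in the first 2 groups. The difference of this circle was thus present only after scaling between arrays, at -0.20 with each array's median in place of the 75th percentile and -0.13 with quantile normalization.

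**Figure D2:**
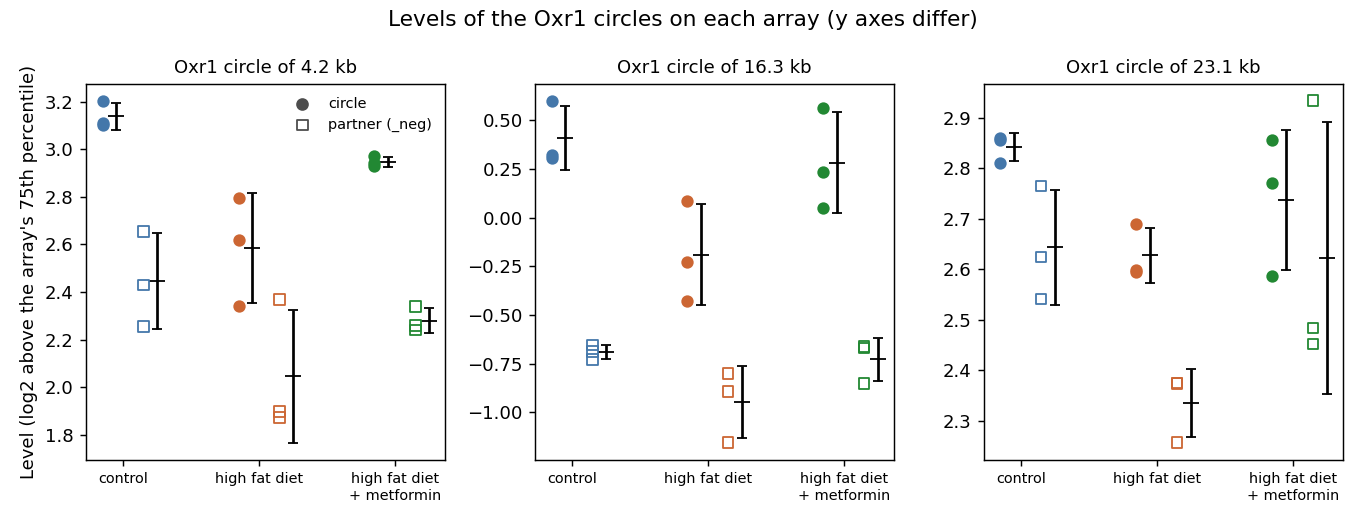
Level of each Oxr1 circle (filled points) and of its partner probe (open squares) on every array, in log2 above the array's 75th percentile, with group means and SD as black bars (n = 3 arrays of 4 pooled mice each). The vertical axes differ between panels, and in each panel the 3 filled high fat diet points lie below the 3 filled control points.

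Averaged over the 3 circles, which come from 1 gene and are not replicates, the Oxr1 mean was 2.22, 2.07 and 2.10 on the control arrays. It was 1.72, 1.67 and 1.63 on the high fat diet arrays and 1.99, 1.85 and 2.12 on the metformin arrays. All other arrays lay above those of the high fat diet, and the metformin arrays overlapped with the controls. For the mean, high fat diet minus control was -0.46 ± 0.10 (SE), a fold of 0.729. It was -0.37 with the slide index as a covariate and -0.41 within index 1, where there was 1 high fat diet array. The metformin minus high fat diet difference was 0.31 ± 0.10, a fold of 1.24, and 0.27 within index 2. The metformin minus control difference was -0.14 ± 0.10, -0.05 with the index as a covariate, -0.07 without metformin array 2, and -0.01 within index 1 of both slides, where metformin array 3 stood against the 3 controls. Since tissue RNA was measured, fewer cells carrying these circles and fewer circles per cell cannot be told apart.

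Against all circRNAs tested with limma, the circles stood as follows. In high fat diet minus control, 0 of 25777 circRNAs (0%) had a Benjamini-Hochberg adjusted p under 0.05, while 1868 had an unadjusted p under 0.05. Of all circRNAs, 62% had a difference below 0, as had 3 of 3 Oxr1 circles. All high fat diet arrays were below all control arrays in 9% of circRNAs (2238 of 24862), and in 3 of 3 Oxr1 circles. The median difference was -0.06 over all circRNAs and -0.55 over the Oxr1 circles. Of the circRNAs tested, 2.32% had a lower difference than the 4.2 kb circle, 1.85% than the 16.3 kb circle and 19.4% than the 23.1 kb circle. Nothing is read from these counts, here or in the other comparisons, because the gene was selected with such differences known.

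In metformin minus high fat diet, which uses the same high fat diet arrays, 0 of 25828 circRNAs (0%) passed the adjusted threshold in limma, and 1007 had an unadjusted p under 0.05. A difference above 0 was seen in 56.4% of circRNAs and in 3 of 3 Oxr1 circles. All metformin arrays were above all high fat diet arrays in 5.07% of circRNAs, and in 1 of 3 Oxr1 circles, the shortest. The median difference was 0.03 over all circRNAs and 0.36 over the Oxr1 circles. A lower difference than that of the 4.2 kb, 16.3 kb and 23.1 kb circles was found in 96.5%, 98.5% and 68.6% of circRNAs.

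In metformin minus control, 0 of 25763 circRNAs (0%) passed the adjusted threshold in limma, and 1307 had an unadjusted p under 0.05. The differences of the 4.2 kb, 16.3 kb and 23.1 kb circles were -0.19 ± 0.14, -0.13 ± 0.18 and -0.10 ± 0.13 (SE). With the slide index as a covariate they were -0.09, -0.01 and -0.06, and within index 1 of both slides -0.20, 0.15 and 0.01. The 16.3 kb circle stood at -0.01 without metformin array 2, -0.27 without metformin array 3 and -0.03 without control array 1. The 23.1 kb circle stood at -0.03 without metformin array 2 and -0.16 without metformin array 3. With all arrays, all 3 were below 0, as were 56.7% of all circRNAs. The arrays of the groups did not overlap, with metformin the lower, in 6.88% of circRNAs and in 1 of 3 Oxr1 circles, again the shortest.

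**Figure D3:**
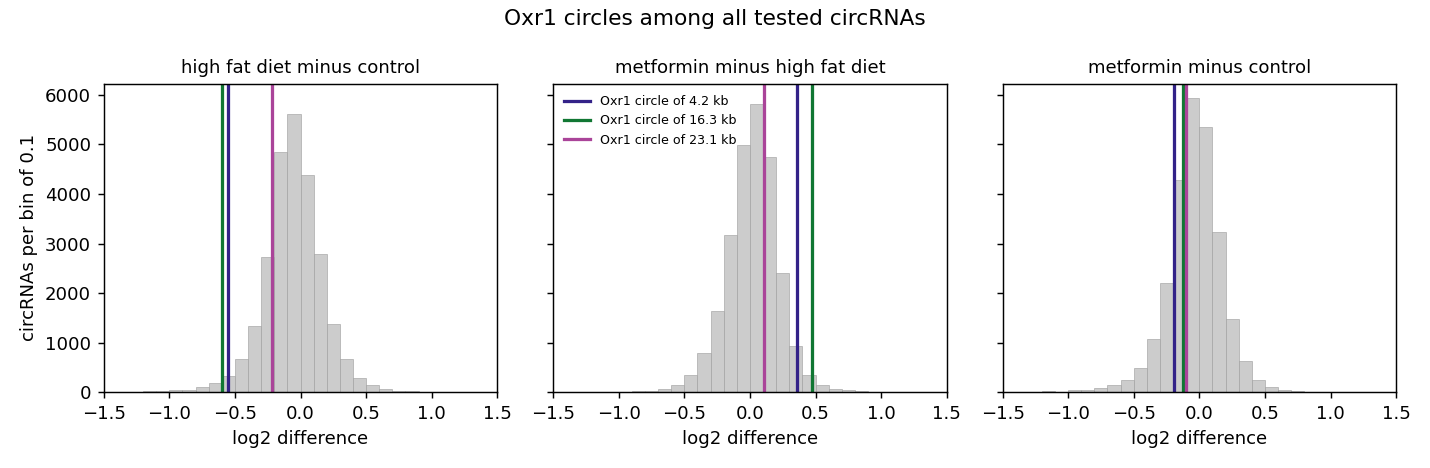
Histograms of the log2 differences of all tested circRNAs (bins of 0.1; those beyond 1.5 either way are not drawn), with the 3 Oxr1 circles as vertical lines, for the 3 comparisons. In high fat diet minus control the 4.2 kb and 16.3 kb circles, at -0.55 and -0.60, lie in the lower tail and the 23.1 kb circle, at -0.21, does not.

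The means of whole loci gave a second scale. Overlapping spans of tested position-named circles were joined into 1066 loci of at least 3 circles, holding 4987 circRNAs. On this scale 1 locus, not Oxr1, had a Benjamini-Hochberg adjusted p under 0.05 in limma in high fat diet minus control. In each of the other comparisons 0 loci had. In high fat diet minus control, 13 loci had a lower difference than Oxr1 and 1052 a higher one, with a median of -0.03 over all loci. In metformin minus high fat diet, 14 loci had a higher difference and 1051 a lower one. In metformin minus control, 202 loci were lower and 863 higher, so the Oxr1 mean was inside the bulk of loci there.

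The differences of the partner probes had the same signs as those of the circles. At the 4.2 kb circle the partner's levels were 2.65, 2.25 and 2.43 on the control arrays, 2.37, 1.87 and 1.90 on the high fat diet arrays and 2.24, 2.26 and 2.34 on the metformin arrays. The first high fat diet array was inside the control range, so these groups overlapped. The 16.3 kb circle's partner read -0.69, -0.65 and -0.73 in the chow pools, -0.80, -0.89 and -1.16 in the high fat diet pools and -0.67, -0.66 and -0.85 with metformin. For the 23.1 kb circle the partner read 2.62, 2.54 and 2.76, then 2.37, 2.26 and 2.37, then 2.45, 2.48 and 2.93 in the same order of groups. For the partners of the 16.3 kb and 23.1 kb circles, every high fat diet array lay below every control array.

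In high fat diet minus control the partners differed by -0.40 ± 0.17, -0.26 ± 0.14 and -0.31 ± 0.16 (SE) from the shortest circle to the longest. All 3 were below 0, as were 61.8% of the partners on the array, and 2 of 3 did not overlap with control, as did 8.86% of partners. In metformin minus high fat diet they differed by 0.23 ± 0.17, 0.22 ± 0.14 and 0.29 ± 0.16, above 0 in 3 of 3 as in 64.5% of all partners. There, 1 of 3 did not overlap, the partner of the 23.1 kb circle, against 7.03% of all partners. In metformin minus control the differences were -0.17, -0.04 and -0.02. All 3 were below 0, as were 48.6% of all partners, and 0 of 3 were free of overlap, against 5.77%.

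The ratio of each circle to its partner was read within an array, so the scaling drops out. For the 4.2 kb circle the log2 ratio was 0.55, 0.85 and 0.68 in the chow pools, 0.43, 0.47 and 0.72 in the high fat diet pools and 0.73, 0.67 and 0.60 with metformin. That ratio's high fat diet minus control difference was -0.15 ± 0.12 (SE), against -0.55 for the level, and the groups overlapped. For the 16.3 kb circle the ratio was 1.29, 0.96 and 1.05, then 0.57, 0.98 and 0.73, then 0.90, 0.71 and 1.41 in the same order. This gave the largest high fat diet minus control difference in ratio of the 3 circles, -0.34 ± 0.19, with high fat diet array 2 inside the control range.

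For the 23.1 kb circle the ratio was 0.24, 0.27 and 0.09 in the chow pools, 0.22, 0.34 and 0.32 in the high fat diet pools and 0.32, 0.10 and -0.08 with metformin. Its high fat diet minus control difference had the other sign, 0.09 ± 0.12, since the partner was further down on the high fat diet than the circle was. Over the 3 circles the mean ratio was 0.66 ± 0.05 in the chow pools, 0.53 ± 0.11 in the high fat diet pools and 0.60 ± 0.09 with metformin (SD, n = 3). This mean ratio had a high fat diet minus control difference of -0.13 ± 0.08 (SE), beside -0.46 for the mean level and -0.32 ± 0.11 for the mean partner level. It was -0.07 without high fat diet array 1, -0.26 within slide index 1, and -0.06 and -0.05 under normexp background correction with percentile and quantile scaling. The metformin minus high fat diet difference of the mean ratio was 0.07 ± 0.08 (SE), and -0.02 within slide index 2 and 0.24 within index 1 of both slides. Leaving out 1 array gave 0.0052 without high fat diet array 1 and 0.10 without high fat diet array 2 or 3. The difference was 0.04 without metformin array 1 or 3 and 0.12 without metformin array 2, and leaving out a control array could not move it. In metformin minus control it was -0.07 ± 0.08, and -0.10 with the slide index as a covariate, -0.02 within index 1 of both slides, -0.02 without metformin array 2 and -0.01 under both normexp settings. In the mean over the circles and all arrays, the differences relative to the partners were smaller in size than those in the levels in each comparison.

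**Figure D4:**
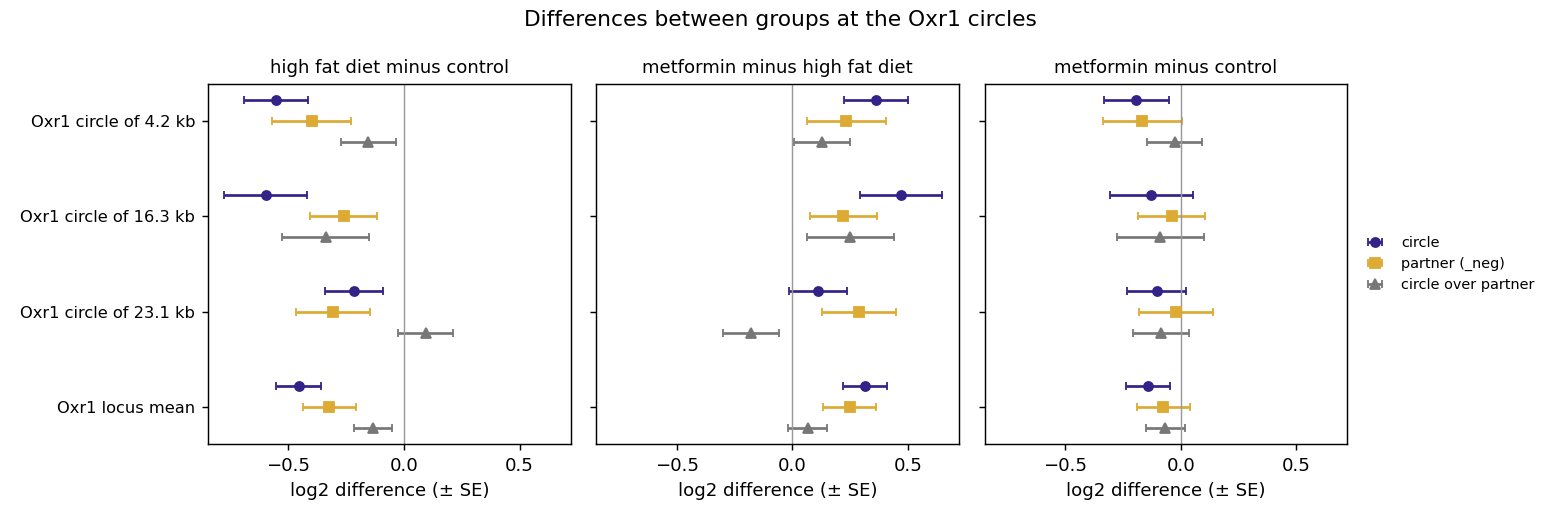
Log2 differences (± SE) of circle level, partner level and circle to partner ratio for each Oxr1 circle and for their mean, in the 3 comparisons. In high fat diet minus control the circles and partners lie below 0, and the ratio of the 23.1 kb circle, at 0.09, lies above it.

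Compared along the gene, the group differences of the circles were further apart in the comparisons with the high fat diet group than in metformin minus control. No SE was computed for a difference between circles, so whether they differ from each other was not tested. The log2 ratio of the 4.2 kb to the 23.1 kb circle was 0.34, 0.29 and 0.25 on the control arrays, 0.20, -0.25 and -0.07 on the high fat diet arrays, and 0.20, 0.34 and 0.09 on the metformin arrays. All high fat diet arrays lay below all control arrays, and array 1 of the high fat diet was the nearest to them. The ratio of the 16.3 kb to the 23.1 kb circle was -2.26, -2.50 and -2.54 in the chow pools, -2.83, -2.51 and -3.12 in the high fat diet pools and -2.54, -2.53 and -2.30 with metformin. Here high fat diet array 2 lay within the control range. The ratio of the 4.2 kb to the 16.3 kb circle had group means of 2.73 ± 0.11, 2.77 ± 0.45 and 2.66 ± 0.26 (SD, n = 3), which differ by less than the spread between arrays.

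Within the high fat diet group the 2 inner circles were not low on the same array. Array 2 had the lowest level of the 4.2 kb circle, 2.34, and the highest of the 16.3 kb circle, 0.09. The differences of the 3 circles in high fat diet minus control spanned a range of 0.38. The median range was 0.22 over 406 sets of 3 circles with a shared end. In metformin minus high fat diet the range was 0.36 against a median of 0.20 over 405 sets of 3. In metformin minus control it was 0.09 against 0.23 over 406 sets of 3. Among 511 sets of 3 or more circles, all circles of a set had a difference below 0 in 26.2% in high fat diet minus control. Among 512 such sets, all were above 0 in 19.5% in metformin minus high fat diet.

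For these circles, the authors' deposited log2 values broadly followed the circle's intensity minus that of its partner. They did not equal the log2 of that subtraction on every array. Their floor was -3.32, and its origin is unknown. In the authors' deposited table the 4.2 kb circle stood at 11.22, 11.52 and 11.24 in the chow pools, 10.42, 10.20 and 11.02 in the high fat diet pools and 11.25, 11.13 and 11.09 with metformin. Again the high fat diet values were below all others. For the 16.3 kb circle the authors' deposited table gave 9.51, 8.91 and 8.94, then 7.79, 8.72 and 7.95, then 8.75, 8.34 and 9.63, with the high fat diet values below all control values. For the 23.1 kb circle the authors' deposited table gave 9.80, 9.88 and 8.41, then 9.40, 10.04 and 10.08, then 10.05, 8.36 and -3.32, the last being metformin array 3, where the partner was the brighter. In that reading the longest circle was not lower on the high fat diet, the difference from control being 0.48.

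The loci whose mean varied over the 9 arrays most like that of Oxr1 were named by position, from 1064 loci with a median Pearson correlation of 0.0138. The closest was chromosome 10, 119436808 to 119475849, with 3 circles and a correlation of 0.91. It was the only one of the 1064 above 0.9, and its group means were -1.88 ± 0.07 in the chow pools, -2.18 ± 0.10 in the high fat diet pools and -2.01 ± 0.09 with metformin (SD, n = 3). Chromosome 15, 90811226 to 90826064, with 4 circles, followed at 0.83, and chromosome 5, 122112009 to 122132878, with 6 circles, at 0.825. The other two were on chromosome 6, at 146500894 to 146506144 with 3 circles (0.813) and at 116223591 to 116238186 with 4 circles (0.812). All 5 had their highest group mean in controls and their lowest on the high fat diet, with metformin between them. That order follows from the choice, because the group differences of Oxr1 enter the correlation. At 146500894 to 146506144 the metformin mean of 1.28 ± 0.10 was within the spread of the control mean, 1.29 ± 0.06 (SD, n = 3). The highest of many correlations over 9 arrays is a description of these arrays, which share their groups and slides, and says nothing of shared control.

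**Figure D5:**
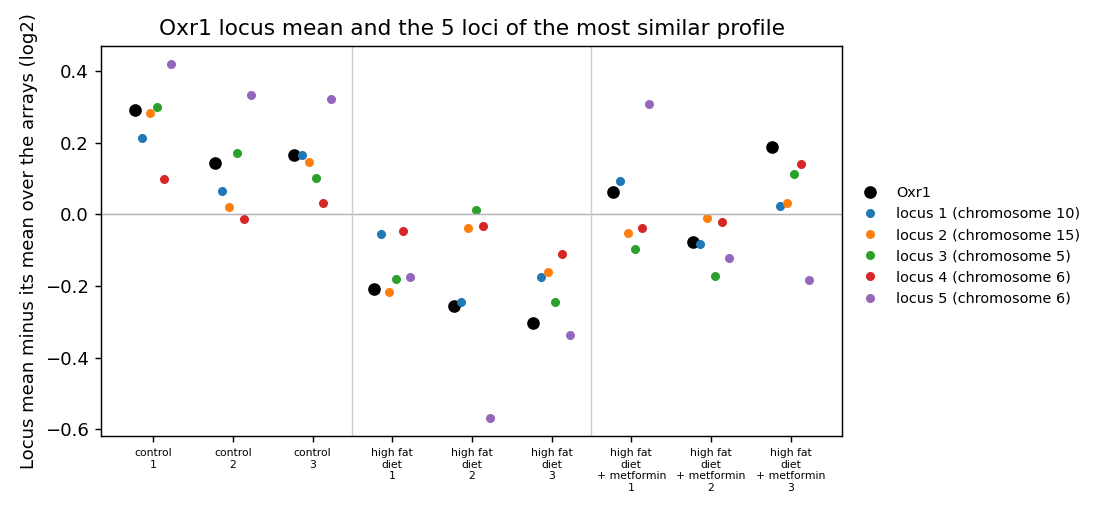
Mean level of the Oxr1 circles (black) and of the 5 loci with the most similar values, on each of the 9 arrays, in log2 relative to the locus's own mean over the arrays (the order of arrays within a group has no meaning). The high fat diet arrays hold the lowest values of Oxr1, and locus 5 covers a wider range than Oxr1 does.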

How the data were processed

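CircRNAs were measured on 9 Agilent 1-colour arrays, 3 per group. Per the file headers, spots were extracted with Feature Extraction 11.5.1.1 (the submitters' processing notes name 10.7) on an mm9 grid, and the deposited processed intensity had local background subtracted but was not scaled between arrays. The authors' deposited log2 values served as an alternative; their scale and direction were read from the spots, and the origin of their floor is unknown.

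Spots flagged as outliers were left out, spots of a probe averaged, and the log2 intensity was reduced by each array's 75th percentile over probes other than controls. A circRNA was tested where in some group all 3 arrays read it well above background (25864 of 30534). All 9 arrays were fitted by group in limma 3.58.1 (R 4.3.3) with Benjamini-Hochberg adjustment; the fit was tested on simulated data. The number of arrays limits the precision.

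The members, gene lists and tests were chosen with earlier results of these data known. Named were all position-named circles in the window and the 5 loci most correlated with their mean. No mean intensity column was at hand, so median spot intensities served for the normexp alternative (offset 50). Replicate numbers did not pair arrays. Probe sequences were not used here.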

Additional observations from a re-analysis of the deposited data

How the results depend on the processing

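In high fat diet minus control the Oxr1 mean was below 0 in all 24 alternatives run, from -0.48 to -0.35. Leaving out 1 array gave -0.48 to -0.41. Not all of these are separate readings. The probe filters, the variance model, the slide as a covariate and leaving out a metformin array could not move this difference. The fits within index 1 of the first slide and of both slides gave the same value. A block by replicate number could not move the differences of the Oxr1 mean, since each group had 1 array of each number. With and without it they were -0.46 in high fat diet minus control, 0.31 in metformin minus high fat diet and -0.14 in metformin minus control. Same-numbered arrays deviated together at -0.141 to 0.191 and differently numbered ones at -0.259 to 0.276, so the numbers were not taken as pairs. With 1 array left out, metformin minus high fat diet ranged from 0.25 to 0.38 and metformin minus control from -0.21 to -0.07. With the authors' deposited values, the Oxr1 mean was -1.15 in metformin minus high fat diet and -1.57 in metformin minus control, resting on the 23.1 kb circle (-4.81 and -4.33), which is at the floor on metformin array 3. The mean circle to partner ratio in metformin minus high fat diet was -0.019 within slide index 2. The 23.1 kb circle was at -0.13 in high fat diet minus control, 0.02 in metformin minus high fat diet and -0.11 in metformin minus control under quantile normalization, and at -0.09 in high fat diet minus control with normexp and quantile normalization. The count of circRNAs with an adjusted p under 0.05, 0 in each comparison, moved in high fat diet minus control to 19 with normexp and 75th percentile scaling, 8 with normexp and quantile normalization, 1 with quantile normalization, 1 with the percentile taken before outlier spots were removed (added after seeing the data), 15 with the deposited values, 1 for circRNAs well above background on all 9 arrays, 7 with a variance trend and robust fit, 1 with the slide index as a covariate, 2 within index 1 of the first slide or of both, and 4 with the replicate block. In metformin minus high fat diet it was 14 with the deposited values, 1 with the slide index, 15 within index 1 of both slides (added after seeing the data) and 0 to 1 with an array left out (1 without high fat diet array 1). In metformin minus control it was 6 and 3 with normexp under percentile and quantile scaling, 23 with the deposited values, 3 with the trend and robust fit, 1 with array weights, 2 with the slide index and 389 within index 1 of both slides, where the metformin group is 1 array on its own slide, assumed to vary like the controls. The causes were not tested.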
